A study of Drosophila melanogaster with 15 samples.

Results

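Fly heads lacking CBS were compared with fly heads lacking CSE. The comparison took every library labelled CBS-/-(5) or CBS-/-(8), 5 in all, against every library labelled CSE-/-, of which there were 3. These are 8 of the 15 RNA-seq libraries of the series, and no library was chosen by its values. All libraries were made from heads of naive 5-day-old Drosophila melanogaster males, about 100 heads per replicate. CBS-/-(5), with 2 libraries, and CBS-/-(8), with 3, are 2 separate CRISPR/Cas9 deletion strains, while CSE-/- is a single strain. An effect of the CSE deletion therefore cannot be told apart from anything else that sets that strain apart. The control strain 58492, with 2 libraries, combines the yellow and white alleles y1 and w1118 and the ligase mutation DNAlig4169 with the transgene M{Act5C-Cas9.P.RFP-}ZH-2A, which drives Cas9 from the Act5C promoter. The deletion strains carry yellow and white mutations too. The control and the 2 double deletion strains, with 5 libraries, are used below only to show where a level lies. Males of these strains had neither been trained nor treated before collection.

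CBS and CSE act one after the other in transsulfuration. Cystathionine β-synthase (CBS) joins homocysteine with serine to form cystathionine, and cystathionine γ-lyase (CSE, annotated as Cth) splits cystathionine to release cysteine. Homocysteine comes from the methionine cycle, and cysteine is used for glutathione, taurine and protein. Both enzymes can also form hydrogen sulfide from sulfur amino acids, as can mercaptopyruvate sulfurtransferase (MST, CG12279). Loss of CBS removes the step that makes cystathionine and loss of CSE the step that uses it, so the comparison asks whether the head transcriptome separates deletions of neighbouring steps of one pathway.

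The 5 CBS-deletion libraries held 6850445 to 9219493 counted reads and the 3 CSE-/- libraries 10285508 to 14687264, so every CSE-/- library was deeper. Levels are given as CPM, counts per 1000000 reads assigned to genes, scaled by TMM (edgeR's trimmed mean of M values). In these 8 libraries 3 counts, the floor used here, corresponded to 0.204 to 0.438 CPM. Libraries of one CBS strain were more alike than libraries of different CBS strains. Pearson's r over genes of log2 CPM was 0.984 within CBS-/-(5), 0.95 to 0.978 within CBS-/-(8) and 0.933 to 0.964 within CSE-/-, against 0.880 to 0.922 between the CBS strains and 0.893 to 0.961 between CBS-/-(5) and CSE-/-. Some libraries stood apart in transcripts of tissues other than the brain and eye. The summed level of 24 midgut markers was 209 to 612 CPM in CBS-/-(5), 10671 to 37057 CPM in CBS-/-(8), 2345 to 14274 CPM in CSE-/- and 7186 to 20701 CPM in the control. Odorant-binding protein Obp83a of the antenna stood at 1.28 and 1.93 CPM in CBS-/-(5), at 13, 82.5 and 299.9 CPM in CBS-/-(8) and at 14.2, 2.34 and 401 CPM in CSE-/-. The yolk protein gene Yp1, made in the female fat body, reached 570.5 CPM in CBS-/-(8) replicate 5 and stayed between 0.642 and 8.80 CPM in the other 7 libraries.

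The deleted genes separated the groups as labelled. CBS (Cbs, FBgn0031148, chromosome X, 21045138 to 21049096) stood at 1.01 and 0.275 CPM in CBS-/-(5), at 1.19, 1.48 and 0.861 CPM in CBS-/-(8), and at 121, 68.2 and 92.8 CPM in CSE-/-. Its log2 difference, CBS strains minus CSE-/-, was -6.62 with a standard error (SE) of 0.38, and the adjusted p was 3.42e-05 (edgeR's quasi-likelihood test, Benjamini-Hochberg adjustment over all genes tested). The control held 174 and 202 CPM of CBS, above all 3 CSE-/- libraries. CSE (Cth, FBgn0000566, chromosome 2R, 18627918 to 18629395) stood at 38.5 and 32.7 CPM in CBS-/-(5), at 67.9, 42.4 and 46.8 CPM in CBS-/-(8), and at 0.734, 1.20 and 1.18 CPM in CSE-/-. Its log2 difference was 5.42 (SE 0.34, adjusted p = 4.48e-05), and the control, at 32.6 and 38.7 CPM, lay among or just below the CBS-deletion libraries. Hence neither deleted transcript overlapped between the groups. MST, intact in all 8 libraries, overlapped between them, with 26.8 ± 8.69 CPM (SD, n = 5) against 30.7 ± 10.7 CPM (SD, n = 3) and an adjusted p of 0.814.

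Of 9407 genes tested, 143 differed at an adjusted p under 0.05, which is 1.52%. In the CBS strains 85 of them were lower (0.904%) and 58 were higher (0.617%). The 85 lower genes had log2 differences down to -6.62 with a median of -1.44, and 76 of them were lower by at least 1 on the log2 scale. The 58 higher genes were shifted more, with a median log2 difference of 2.33, and all of them exceeded 1. The median over all genes tested was 0.00. In each of the 143 genes the 5 CBS-deletion libraries did not overlap the 3 CSE-/- libraries, which was so in 7.18% of all genes tested. For 29 of the lower and 31 of the higher genes the CBS strains did not overlap each other either, although both lay on the same side of CSE-/-. Fitted alone against the same 3 CSE-/- libraries, CBS-/-(5) had 57 lower and 31 higher genes, and CBS-/-(8) had 115 lower and 147 higher genes. Called in both of these fits were 19 lower and 27 higher genes, among them 18 of the 85 and 26 of the 58. Some genes named below, such as pug, MsrA, GstO1 and Bmcp, were called in neither strain alone, where each fit had fewer libraries.

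The number of calls rested on individual libraries and was lower with the replicate number as a block. Without CSE-/- replicate 1 there were 20 lower and 16 higher genes, and without CSE-/- replicate 4 there were 16 and 18. Without CSE-/- replicate 3 the lower genes increased to 177, with 49 higher. Leaving out CBS-/-(8) replicate 2 gave 41 and 34, leaving out CBS-/-(8) replicate 5 gave 33 and 33, and leaving out CBS-/-(5) replicate 1 or replicate 3 gave 54 and 46 or 48 and 61. With the replicate number as a block 7 genes were lower and 8 higher (0.159% of all genes tested), in a fit with 2 residual degrees of freedom. Only replicates 1 and 3 occur in both genotypes, so libraries with other numbers do not inform the difference of the block fit. Its fewer calls therefore cannot be assigned to pairing rather than to this loss of libraries. All 143 genes kept their sign under the block, and none changed sign in another alternative in which it was tested, the fewest being the 113 tested with a minimum of 10 counts. Of the 143 genes, 36 remained called without CSE-/- replicate 1, 34 without CSE-/- replicate 4, 65 without CBS-/-(8) replicate 5, 73 without CBS-/-(8) replicate 2 and 112 without CSE-/- replicate 3. Each called gene given with values below that lost its call in any of these fits lost it without CSE-/- replicate 1 or replicate 4, or without both. In all 8 fits that left out 1 library, 30 genes were called. Besides genes described below, they included CG11892, CG31955, CG42846, CG8539, CG2065 and CG42329. CG34215, CSE (Cth), Cyp4p1, Drsl4, TotA, TotC, fipi and phr were called under all 19 alternative fits.

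**Figure D1:**
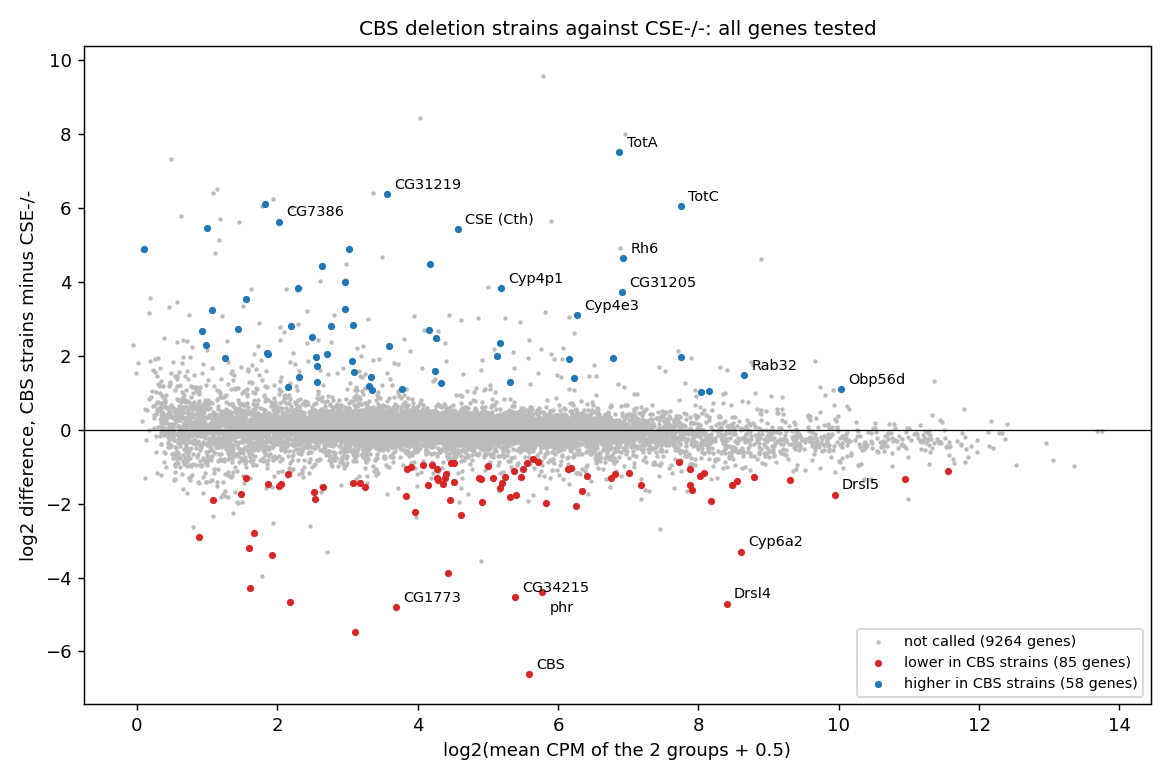
Log2 difference of each of the 9407 genes tested (y axis, CBS strains minus CSE-/-) against its mean level (x axis, log2 of CPM plus 0.5). Red points are the 85 genes lower and blue points the 58 genes higher in the CBS strains, and grey points were not called; CBS lies at -6.62 and CSE (Cth) at 5.42, and TotA at 7.51 is the highest called gene.

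Turandot genes were higher in the CBS strains than in CSE-/-. Turandot genes encode small secreted peptides that accumulate in the hemolymph after heat, infection and other stress. TotA (FBgn0028396, chromosome 3R, 20871036 to 20871700) stood at 127 and 271 CPM in CBS-/-(5), at 146, 292 and 327 CPM in CBS-/-(8), and at 1.25, 1.14 and 1.39 CPM in CSE-/-. Its log2 difference was 7.51 (SE 0.48, adjusted p = 4.48e-05). TotC, next to it on 3R (20872988 to 20873580), stood at 289 and 618 CPM, at 452, 273 and 484 CPM, and at 5.65, 4.68 and 8.67 CPM in the same order, a log2 difference of 6.04 (SE 0.42, adjusted p = 7.86e-05). The CSE-/- libraries were the low ones, because the control held 163 and 196 CPM of TotA and 219 and 272 CPM of TotC. Double deletion strains were variable, at 0.994 to 55.3 CPM of TotA and 66.6 to 325 CPM of TotC. Over the alternatives the adjusted p ranged from 4.59e-80 to 0.00554 for TotA and from 1.09e-72 to 0.0128 for TotC, with the largest values under the replicate block. Of the 4 Turandot genes tested, 2 were higher (0.617% of all genes tested were) and none lower, with a median log2 difference of 3.86. TotM (1.68) and TotX (-0.62) did not pass the test.

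Among antimicrobial peptide genes Drsl4 and Drsl5 were called lower in the CBS strains, while most of the list leaned higher without a call. These genes encode secreted peptides induced through the Toll and Imd pathways, and the Drosomycin-like genes of the same list resemble the antifungal peptide Drosomycin. Drsl4 (FBgn0052282, chromosome 3L, 3315620 to 3315942) stood at 32.0 and 23.4 CPM in CBS-/-(5), at 27.1, 16.5 and 27.2 CPM in CBS-/-(8), and at 971, 432 and 548 CPM in CSE-/-. Its log2 difference was -4.71 (SE 0.30, adjusted p = 4.48e-05). The control, at 544 and 449.9 CPM, lay in the range of CSE-/-, so the CBS strains were the ones that departed. Its neighbour Drsl5 (3L, 3316781 to 3317144) was also lower, at 312 to 679 CPM in the CBS strains against 945 to 1944 CPM in CSE-/- (log2 difference -1.76, SE 0.30, adjusted p = 0.0217). Drsl5 was not called under the block (adjusted p = 0.231) or in 4 of the 8 fits without 1 library (up to 0.131), whereas for Drsl4 the adjusted p stayed between 5.36e-49 and 0.00955. Of the double deletion strains, the first held 32.9 to 66.5 CPM of Drsl4 and the second 393 and 483 CPM.

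Of 28 antimicrobial peptide genes tested, 2 were lower (0.904% of all genes tested were) and none higher (0.617%), yet the list's median log2 difference was 0.76. In this list 23 genes had positive and 5 negative log2 differences, against 4753 positive among all 9407. In edgeR 17 of the 28 had an unadjusted p under 0.05 (11.2% of all genes tested did). Among those not called, 13 had log2 differences of 2.60 to 6.52, with adjusted p from 0.0530 to 0.316. In 9 of the 28 all CBS-deletion libraries lay above all CSE-/- libraries, against 3.26% of all genes tested. DESeq2, fitted as an alternative, called 13 of the 28 higher and the same number lower as edgeR, 2. Of all 9396 genes that DESeq2 tested, it called 148 higher and 207 lower. Mtk, the gene of the antifungal peptide metchnikowin, stood at 245 and 49.3 CPM in CBS-/-(5), at 161, 117 and 66.7 CPM in CBS-/-(8), and at 30.7, 13.7 and 17.8 CPM in CSE-/-, with a log2 difference of 2.60 that missed the threshold (adjusted p = 0.0530). The attacin genes AttA (log2 difference 3.11, adjusted p = 0.0590) and AttB (3.03, adjusted p = 0.0795) and the cecropin gene CecA1 (6.24, adjusted p = 0.0795) lay on the same side, with a wide spread among the CBS-deletion libraries. AttA ranged from 9.72 to 64.6 CPM there and from 3.52 to 5.14 CPM in CSE-/-. AttA and AttB are near-identical copies, and reads shared between them may have been split or lost in counting. The short immune peptide gene BomS2 stood at 435 ± 75.1 CPM (SD, n = 5) against 218 ± 74.6 CPM (SD, n = 3), and its log2 difference of 0.98 did not pass (adjusted p = 0.147).

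**Figure D2:**
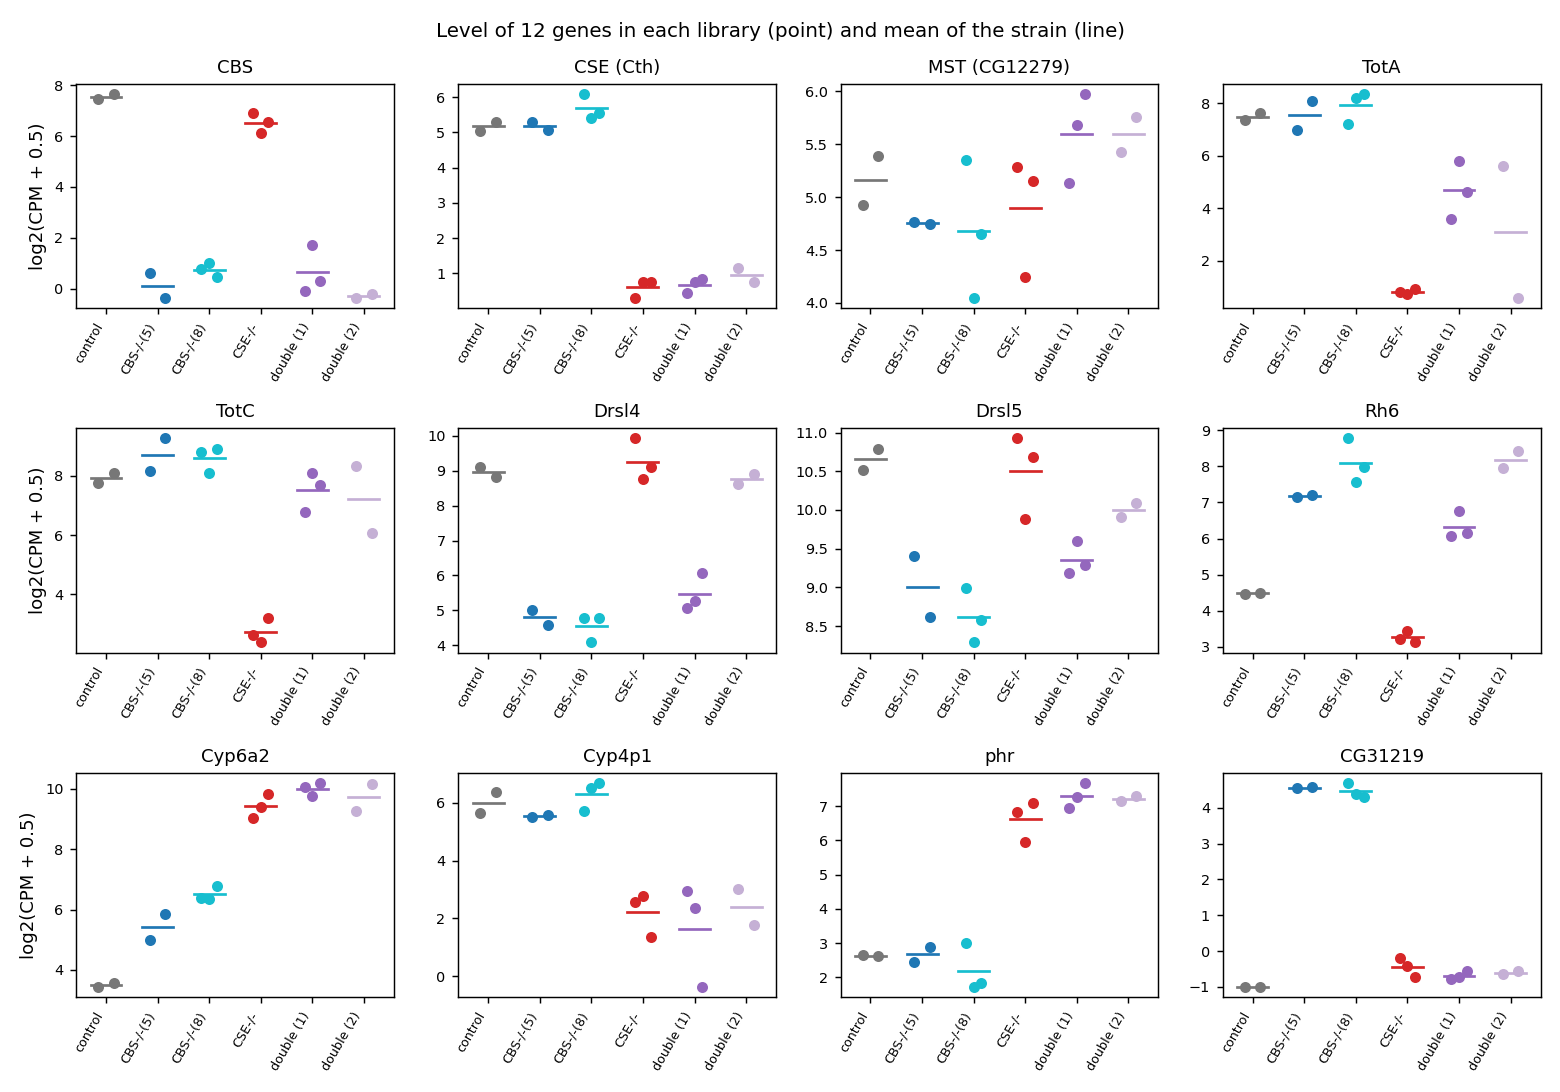
Level of 12 genes as log2 of CPM plus 0.5 (y axis) in each of the 15 libraries (points) by strain (x axis), with the mean of each strain as a line. TotA, TotC and Cyp4p1 are low in CSE-/- with CBS strains near the control, Drsl4 and CG31219 separate the CBS strains from both CSE-/- and control, and phr and Cyp6a2 are high in CSE-/- and in the double deletion strains.

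Within the methionine cycle, transsulfuration and sulfide pathways, few genes other than the deleted ones separated the groups. Of 20 genes tested, 2 were lower (0.904% of all genes tested were) and 1 higher (0.617%), and 2 of these 3 were CBS and CSE themselves. The median log2 difference was -0.12. The third was pug, which encodes a folate enzyme that interconverts one-carbon units of tetrahydrofolate. It stood at 379 and 374 CPM in CBS-/-(5), at 407, 275 and 360.0 CPM in CBS-/-(8), and at 1178, 475 and 1063 CPM in CSE-/- (log2 difference -1.36, SE 0.28, adjusted p = 0.0473). The control, at 1079 and 1378 CPM, was near the upper CSE-/- libraries, while the double deletion strains, at 309 to 614 CPM, were not. Sam-S, the S-adenosylmethionine synthetase, had a log2 difference of 0.49 (adjusted p = 0.551), and the adenosylhomocysteinase Ahcy had one of -0.29 (adjusted p = 0.750). Gclc and Gclm, the subunits of the enzyme that starts glutathione synthesis, had log2 differences of 0.22 and 0.16 (adjusted p = 0.770 and 0.804). Sqor, the mitochondrial sulfide:quinone oxidoreductase that begins sulfide oxidation, held 33.6 ± 4.60 CPM (SD, n = 5) against 47.4 ± 9.08 CPM (SD, n = 3), and its log2 difference of -0.52 did not pass (adjusted p = 0.253). Gnmt, which uses S-adenosylmethionine to methylate glycine, ranged from 169 to 509 CPM in the CBS strains and from 18.1 to 155 CPM in CSE-/-. Its groups did not overlap, but its log2 difference of 1.69 had an SE of 0.63 and an adjusted p of 0.329, and the control lay far above both at 927 and 1420 CPM. The call of pug was lost under the replicate block (adjusted p = 0.596) and in 7 of the 8 fits without 1 library (up to 0.232), and its alternatives started at 0.000424.

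Some called metabolic genes outside that list are given singly here. They were picked out after their values had been seen and belong to no list, so nothing follows from them for a pathway. CG3999, the glycine-decarboxylating subunit of the glycine cleavage system, stood at 39.8 and 25.0 CPM in CBS-/-(5), at 44.3, 35.1 and 51.7 CPM in CBS-/-(8), and at 158, 89.7 and 117 CPM in CSE-/- (log2 difference -1.66, SE 0.25, adjusted p = 0.0130). The control, at 128 and 127 CPM, was within the CSE-/- range. Mthfs, which returns 5-formyltetrahydrofolate to the folate pool, was lower with a log2 difference of -1.64 (SE 0.33, adjusted p = 0.0457), and the threonine-degrading enzyme Gcat with one of -0.87 (SE 0.18, adjusted p = 0.0476). Argl, argininosuccinate lyase, was lower by a log2 difference of -1.40 (adjusted p = 0.0486), Tmlh, an enzyme of carnitine synthesis, by -1.83 (adjusted p = 0.00874), and the pterin deaminase DhpD by -1.05 (adjusted p = 0.0335). MsrA, which reduces oxidised methionine in proteins, went the other way. It stood at 385 and 325 CPM in CBS-/-(5), at 475, 315 and 415 CPM in CBS-/-(8), and at 221, 162 and 165 CPM in CSE-/- (log2 difference 1.04, SE 0.21, adjusted p = 0.0436), and the control, at 89.3 and 89.2 CPM, lay below all 8 libraries. Under the replicate block CG3999 was still called (adjusted p = 0.0331), whereas Mthfs, Gcat, Argl, Tmlh, DhpD and MsrA were not, with adjusted p between 0.246 and 0.655. CG3999 itself gave an adjusted p of 0.0821 without CSE-/- replicate 1, and Tmlh one of up to 0.0569 without CSE-/- replicate 1 or 4. MsrA lost its call in all 8 fits without 1 library (up to 0.192), Gcat, Argl and Mthfs in 7 (up to 0.232, 0.229 and 0.222) and DhpD in 6 (up to 0.169).

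Cytochrome P450 genes formed the largest listed group of calls. These heme enzymes oxidise hormones, lipids, plant toxins and insecticides. Of 68 tested, in the CBS strains 8 were lower (0.904% of all genes tested were) and 2 higher (0.617%), with a median log2 difference of -0.28. In 19 all CBS-deletion libraries lay below all CSE-/- libraries (3.91% of all genes tested did) and in 4 above. Cyp6a2, known for its overexpression in insecticide-resistant flies, stood at 31.4 and 57.1 CPM in CBS-/-(5), at 83.5, 81.5 and 110.0 CPM in CBS-/-(8), and at 523, 673 and 913 CPM in CSE-/- (log2 difference -3.30, SE 0.37, adjusted p = 0.00267). The control held only 10.3 and 11.5 CPM, and the double deletion strains 615 to 1178 CPM. Thus CSE-/- and the double deletion strains were high, and the CBS strains intermediate. Cyp4p1 (chromosome 2R, 9240041 to 9242139) was higher in the CBS strains, at 45.1 and 47.1 CPM in CBS-/-(5) and 51.8, 90.8 and 102 CPM in CBS-/-(8) against 5.36, 6.39 and 2.03 CPM in CSE-/- (log2 difference 3.83, SE 0.47, adjusted p = 0.00432). Its control level of 49.2 and 82.3 CPM lay within the range of the CBS strains, and the double deletion strains, at 0.275 to 7.49 CPM, overlapped CSE-/-. Cyp4e3 was higher too (log2 difference 3.10, SE 0.63, adjusted p = 0.0473), and here the CBS strains differed from each other, with 267 and 231 CPM in CBS-/-(5) and 54.2 to 78.3 CPM in CBS-/-(8), against 14.2 to 18.7 CPM in CSE-/-.

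The remaining P450 calls were lower in the CBS strains. Cyp4d8 stood at 15.3 to 20.8 CPM against 44.8 to 59.8 CPM in CSE-/- (log2 difference -1.58, SE 0.16, adjusted p = 0.00143) and Cyp6t1 at 13 to 25.4 CPM against 45.7 to 75.1 CPM (-1.76, SE 0.26, adjusted p = 0.0117). Cyp6t1 lies within 0.5 Mb of the CBS gene on X. Cyp12a5 (-1.21, adjusted p = 0.0122), Cyp4d1 (-1.80, adjusted p = 0.0167), Cyp6a13 (-1.06, adjusted p = 0.0199), Cyp4ac2 (-1.31, adjusted p = 0.0457) and Cyp4g1 (-3.38, adjusted p = 0.0457) completed the list. Cyp4g1, the oenocyte enzyme that makes cuticular hydrocarbons, was low in all 8 head libraries, at 0.183 to 1.64 CPM in the CBS strains and 2.72 to 11.9 CPM in CSE-/-. Under the replicate block Cyp4p1 alone among the 10 P450 genes was called (adjusted p = 0.0128), and the other 9 gave adjusted p between 0.071 and 0.483. Cyp4d8, Cyp4p1 and Cyp6a2 were called in every fit that left out 1 library. The other 7 lost their call in 2 (Cyp12a5 and Cyp6t1) to 7 (Cyp4ac2) of the 8 fits, each of them without CSE-/- replicates 1 and 4 in turn, and reached an adjusted p of 0.0729 (Cyp12a5) to 0.227 (Cyp4e3). Among 32 glutathione S-transferase genes tested, GstO1 was the only call (log2 difference -1.07, SE 0.20, adjusted p = 0.0334), and the median of the list was -0.09. Of all genes tested 1.52% were called. In 6 of the 32 the CBS-deletion libraries all lay above CSE-/- (3.26% of all genes tested did), among them GstE4, at 1.74 to 10.4 CPM against 0.749 to 1.39 CPM (log2 difference 2.63, adjusted p = 0.0613). UDP-glycosyltransferases attach sugars to foreign compounds and hormones, and 3 of the called genes, not taken from a list, encode such enzymes. Ugt37A3 was higher (log2 difference 4.49, adjusted p = 0.0151), while Ugt37B1 (-1.97, adjusted p = 0.0151) and Ugt36E1 (-1.13, adjusted p = 0.0167) were lower. Without CSE-/- replicate 1 the adjusted p was 0.164 for GstO1, which lost its call in 6 of the 8 fits without 1 library, and 0.0955 to 0.108 for the Ugt genes, which lost theirs in 2 or 3. The block called none of them (adjusted p = 0.0939 for Ugt37A3, 0.208 for Ugt37B1, 0.289 for GstO1 and 0.325 for Ugt36E1). DESeq2 called 5 of the 32 GST genes, 4 of them higher, and of all 9396 genes it tested 148 higher and 207 lower.

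The rhodopsin gene Rh6 was the only phototransduction gene called. Rh6 encodes the green-sensitive visual pigment of one class of R8 photoreceptors. It stood at 142 and 148 CPM in CBS-/-(5), at 438, 188 and 251 CPM in CBS-/-(8), and at 8.88, 10.3 and 8.24 CPM in CSE-/- (log2 difference 4.64, SE 0.44, adjusted p = 0.000923). The control, at 21.8 and 22.1 CPM, was closer to CSE-/-, and the double deletion strains ranged from 66.1 to 341 CPM. Under the block its adjusted p was 0.147, the largest over its alternatives, which started at 4.56e-34, and no single library decided it. The summed level of 13 photoreceptor markers was 40533 to 50040 CPM in the CBS strains and 42123 to 50156 CPM in CSE-/-. The marker sum thus overlapped while Rh6 did not. Rh6 contributed at most 438 CPM to these sums, so they could not show a change confined to the cells that express Rh6. Across 35 phototransduction genes 1 was called (1.52% of all genes tested were) and the median log2 difference was 0.11. Of the 35 genes, 6 lay wholly above CSE-/- (3.26% of all genes tested did). Of these Rh2, the ocellar rhodopsin, was at 274 to 364 CPM against 198 to 236 CPM (log2 difference 0.54, adjusted p = 0.262). Rab32, a small GTPase needed for eye pigment granules, was higher and varied little within a group, at 551 to 622 CPM against 199 to 231 CPM (log2 difference 1.47, SE 0.17, adjusted p = 0.00313), with the control between at 376 and 440.0 CPM. The block did not call Rab32 (adjusted p = 0.223), and every fit without 1 library did. In such bulk samples fewer cells of a type and less RNA per cell cannot be told apart.

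Odorant-binding proteins, which carry odorants and other small hydrophobic molecules in sensory lymph and elsewhere, gave 3 calls among 28 genes tested. Of all genes tested 1.52% were called. In 5 of the 28 all CBS-deletion libraries lay below all CSE-/- libraries (3.91% of all genes tested did) and in 2 above (3.26%). In edgeR 9 of the 28 had an unadjusted p under 0.05 (11.2% of all genes tested did). Obp56h stood at 37.0 and 21.2 CPM in CBS-/-(5), at 22.2, 33.9 and 36.6 CPM in CBS-/-(8), and at 4.55, 5.50 and 3.64 CPM in CSE-/- (log2 difference 2.69, SE 0.28, adjusted p = 0.00143). The control, at 19.5 and 22.9 CPM, sat at the lower edge of the CBS strains. Obp56d was also higher, at 1209 to 1742 CPM against 616 to 684 CPM (log2 difference 1.10, SE 0.19, adjusted p = 0.0279), whereas Obp57a was lower (-1.46, SE 0.27, adjusted p = 0.0309). The list's median of -0.46 ran against the 2 higher calls, and 20 of the 28 had negative log2 differences. None of the 3 was called under the replicate block (adjusted p = 0.147 to 0.462), and Obp56d and Obp57a each lost their call in 5 of the 8 fits without 1 library (up to 0.140 and 0.155), while Obp56h lost it in none. Obp19a, an antennal gene, was not detected in either CBS-/-(5) library and ranged from 0.19 to 73.5 CPM in CSE-/-, and the part of antennal tissue in the Obp values was not tested. The cuticular protein gene Cpr72Ec was the 1 call among 21 cuticular genes tested (log2 difference -1.16, adjusted p = 0.0440), against 1.52% of all genes tested. That call was lost under the block (0.655) and in 6 of the 8 fits without 1 library (up to 0.183). In 4 of the 21 cuticular genes all CBS-deletion libraries lay below CSE-/- and in 2 above, against 3.91% and 3.26% of all genes tested.

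Some of the most strongly separated genes set CSE-/- apart while the CBS strains stayed near the control. CG34215 (chromosome 2R, 6831296 to 6831793) stood at 2.48 and 3.58 CPM in CBS-/-(5), at 2.83, 4.01 and 4.31 CPM in CBS-/-(8), and at 85.4, 90.1 and 62.6 CPM in CSE-/- (log2 difference -4.54, SE 0.23, adjusted p = 1.28e-05). Its level was 2.24 and 2.82 CPM in the control and 32.5 to 64.9 CPM in the double deletion strains. The DNA photolyase gene phr (2R, 7825289 to 7827319) had the same order, at 2.79 to 7.46 CPM in the CBS strains, 61.9 to 136 CPM in CSE-/- (log2 difference -4.40, SE 0.37, adjusted p = 0.000322), 5.72 and 5.64 CPM in the control and 124 to 205 CPM in the double deletion strains. CG1773 (-4.80, adjusted p = 0.000271) and CG30091 (-5.46, adjusted p = 0.00313) were lower likewise, with control levels of 0 to 2.86 CPM for CG1773 and 0.746 to 1.49 CPM for CG30091. The germline piRNA gene squ was lower in the CBS strains at 0 to 0.597 CPM against 4.55 to 5.46 CPM (log2 difference -4.28, adjusted p = 0.00630). On the other side, the serine protease homologue SPH93 was low in CSE-/- at 0.126 to 1.03 CPM, against 2.62 to 14.5 CPM in the CBS strains (log2 difference 3.83, adjusted p = 0.0335) and 15.3 and 3.98 CPM in the control. CG13658, at 2.39 to 21.5 CPM against 0.44 to 0.535 CPM (log2 difference 4.42, adjusted p = 0.0454), and the alcohol dehydrogenase Adh, at 5.78 to 11.8 CPM against 1.20 to 2.14 CPM (2.51, adjusted p = 0.00933), were also lowest in CSE-/-. CG34215, phr, CG1773, CG30091 and squ were called in every fit without 1 library, but under the block CG30091 (adjusted p = 0.071) and squ (0.183) were not. SPH93 and CG13658 lost their call in 6 of the 8 fits without 1 library (up to 0.168 and 0.218) and Adh in 1, without CSE-/- replicate 1 (0.0764). The block called none of these 3 (adjusted p = 0.261, 0.651 and 0.0937).

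In other genes the CBS strains departed and CSE-/- stayed near the control. CG31219 (chromosome 3R, 19651018 to 19652430) stood at 23.1 and 23.4 CPM in CBS-/-(5), at 25.5, 20.5 and 19.1 CPM in CBS-/-(8), and at 0.367, 0.253 and 0.107 CPM in CSE-/- (log2 difference 6.37, SE 0.30, adjusted p = 1.28e-05). It had no count in either control library and at most 0.183 CPM in the double deletion strains. CG7386 had 345 counts in the 5 CBS-deletion libraries and 5 in the 3 CSE-/- libraries, a depth-scaled ratio of 53.1 with a 95% Clopper-Pearson interval of 22.5 to 165 that covers counting error only (log2 difference 5.62, adjusted p = 4.48e-05). CG31664, with 308 counts against 3, gave a ratio of 79.0 (26.8 to 385) and CG10725, with 132 counts against 2, a ratio of 50.8 (13.8 to 424). CG10725 stood at 2.27 to 6.56 CPM in CBS-/-(8) and at only 0.367 and 1.83 CPM in CBS-/-(5), where it was too low to be tested alone, so its ratio rests mostly on CBS-/-(8). CG31205 stood at 343 and 309 CPM in CBS-/-(5), at 163, 136 and 169.6 CPM in CBS-/-(8), and at 20.4, 15.6 and 13.9 CPM in CSE-/- (log2 difference 3.72, SE 0.39, adjusted p = 0.00149), with 14.3 and 13.8 CPM in the control. CG10725 lost its call in 7 of the 8 fits without 1 library (adjusted p up to 0.216), and the other genes of this paragraph in none. The block called CG31219 and CG7386 but not CG31205 (adjusted p = 0.071), CG31664 (0.11) or CG10725 (0.533).

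Some of the called genes also separated the CBS strains from each other, whichever deletion lay nearer the control. The cohesin acetyltransferase gene eco stood at 88.6 and 98.1 CPM in CBS-/-(5), at 23.7, 42.8 and 45.7 CPM in CBS-/-(8), and at 9.32, 12.6 and 12.5 CPM in CSE-/- (log2 difference 2.36, SE 0.46, adjusted p = 0.0403). The methuselah-like receptor gene mthl8 was at 26.4 and 31.6 CPM, at 4.02 to 6.63 CPM and at 0.321 to 0.587 CPM in that order (log2 difference 4.89, adjusted p = 0.0334). In both, CBS-/-(5) was the higher CBS strain, and in CG11034 (4.00, adjusted p = 0.0301) it was the lower, with 4.40 and 4.13 CPM against 15.8 to 26 CPM in CBS-/-(8). The ecdysteroid oxidase gene fiz was lower in both strains but differed between them, with 0.367 and 0.459 CPM in CBS-/-(5), 3.58 to 5.45 CPM in CBS-/-(8) and 31.0 to 50.4 CPM in CSE-/- (log2 difference -3.88, adjusted p = 0.0217). The control held 3.85 and 22.1 CPM of fiz, below every CSE-/- library and, in the first, within the range of CBS-/-(8). The splicing regulator mbl stood at 114 to 244 CPM in the CBS strains against 32.0 to 59.0 CPM in CSE-/- (log2 difference 1.94, SE 0.31, adjusted p = 0.0167), and its highest levels were those of the double deletion strains at 220.3 to 441 CPM. The courtship song gene fipi, at 8.20 to 16.9 CPM against 1.17 to 1.5 CPM (log2 difference 3.28, SE 0.32, adjusted p = 0.000958), and the septate junction gene hoka, at 11.7 to 18.3 CPM against 0.822 to 4.28 CPM (2.82, SE 0.52, adjusted p = 0.0334), were among the 8 higher genes that the block still called. Without 1 library hoka and eco each lost their call in 6 of the 8 fits (adjusted p up to 0.153 and 0.211), CG11034 in 5 (0.168), mthl8 in 3 (0.176) and fiz and mbl in 2 (0.107 and 0.124), while fipi lost it in none. The block did not call eco, mthl8, CG11034, fiz or mbl (adjusted p = 0.074 to 0.56). The remaining lower genes of the 15 with the largest differences were CG10073 (-4.67, adjusted p = 0.000303), the gene FBgn0036125 (-3.21, adjusted p = 0.0261), CG30083 (-2.91, adjusted p = 0.0473), CG43402 (-2.80, adjusted p = 0.0119) and CG16926 (-2.32, adjusted p = 0.0459). Of these CG10073 was called in every fit without 1 library and under the block. CG43402 lost its call in 1 of the 8 fits (0.0730), FBgn0036125 in 4 (0.140) and CG30083 and CG16926 in 7 (0.216 and 0.206), and the block called none of these 4 (adjusted p = 0.187 to 0.568).

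In the 143 genes, the distance from the control differed between the CBS strains and the CSE-/- strain. Among the 85 genes lower in the CBS strains, the CBS mean lay at least 1 below the control on the log2(CPM + 0.5) scale in 56 genes and at least 1 above in 2, with a median of -1.26. For the same genes the CSE-/- mean lay at least 1 below in 4 and at least 1 above in 15, with a median of 0.05. Among the 58 genes higher in the CBS strains, the CBS mean lay at least 1 above the control in 33 and at least 1 below in 2 (median 1.30), and the CSE-/- mean lay at least 1 above in 3 and at least 1 below in 20 (median -0.48). Both distances use the same 2 control libraries, and the genes were called from the difference between the deletions, so these counts are a description. The double deletion strains lacked both enzymes. Their mean was at least 1 below the control in 26 of the 85 lower genes and at least 1 above in 10 (median -0.60), and at least 1 above in 15 of the 58 higher genes and at least 1 below in 12 (median 0.19).

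**Figure D3:**
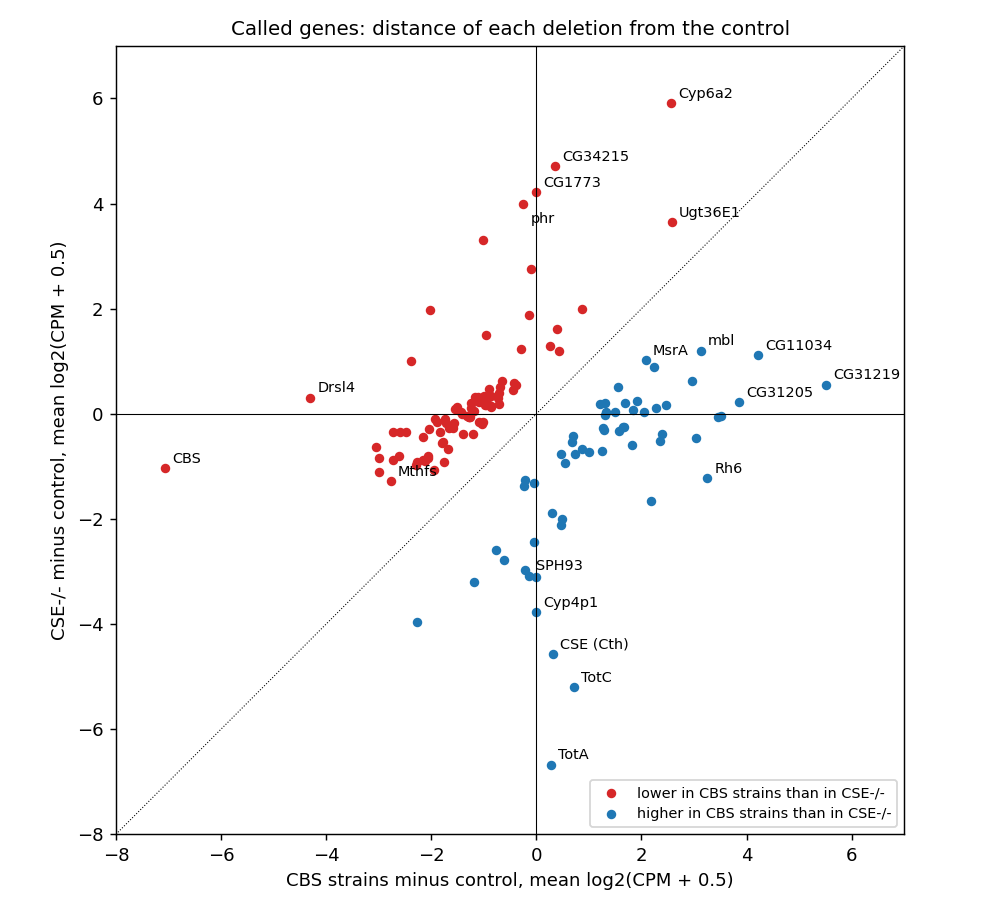
Distance of each deletion from the control for the 143 called genes, as the difference of mean log2(CPM + 0.5). The x axis is the CBS strains minus control and the y axis CSE-/- minus control; red marks genes lower in the CBS strains than in CSE-/- and blue marks higher ones, the dotted line marks equal distance, and both axes share the 2 control libraries. Drsl4 and CG31219 lie along the x axis near y = 0, and TotA, TotC, phr and CG34215 along the y axis near x = 0.

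A run of neighbouring genes on 3L was lower in the CBS strains. It was picked out after the calls had been seen. Between CG15213 and Srp54k (chromosome 3L, 5132796 to 5154777, 22.0 kb) 11 genes were tested and 8 were called, with log2 differences of -0.95 to -1.49. Elsewhere no stretch of 8 consecutive tested genes held more than 3 calls, while the most in a stretch inside the run was 7. Srp54k, a subunit of the signal recognition particle, stood at 80.4 and 84.2 CPM in CBS-/-(5), at 75.9, 72.0 and 88.6 CPM in CBS-/-(8), and at 179.6, 163 and 189 CPM in CSE-/- (log2 difference -1.17, SE 0.14, adjusted p = 0.00416). The control held 157 CPM in both libraries. The narrow spread on both sides was shared by Fitm, an endoplasmic reticulum protein of lipid droplet formation, at 44.2 to 59.2 CPM against 101 to 141 CPM (-1.24, SE 0.17, adjusted p = 0.00683). Dhrs4, a short-chain dehydrogenase, showed a wider one, at 134 to 272 CPM against 278 to 652 CPM (-1.49, SE 0.30, adjusted p = 0.0473). The deubiquitinase gene Yod1 (-1.19, adjusted p = 0.0163), CG15213 (-1.44, adjusted p = 0.00986), CG4611 (-0.95, adjusted p = 0.0490), the tRNA-modification gene Tcs5 (-1.30, adjusted p = 0.0279) and the ESCRT-III gene CHMP2B (-1.07, adjusted p = 0.0334) were the other calls. The genes of the run that did not pass were Gdap1 (0.50), AlaRS-m (-0.83) and Gen (-0.22). CG4611 with Tcs5, CHMP2B with Dhrs4, Gdap1 with Fitm and AlaRS-m with Gen overlap on opposite strands, and whether the counting used strand is not given in the sources used here, so reads of such pairs may not be told apart. Over the 11 genes the median distance from the control was -0.73 in each CBS strain, 0.17 in CSE-/- and 0.26 in the double deletion strains. None of the 8 was called under the replicate block (adjusted p = 0.206 to 0.483). Fitm and Srp54k were called without any single library, and the other 6 were not called without CSE-/- replicate 4, with adjusted p of up to 0.0613 (CG15213) to 0.259 (CG4611), and CG4611, Tcs5, CHMP2B and Dhrs4 lost their call in 6 of the 8 fits.

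**Figure D4:**
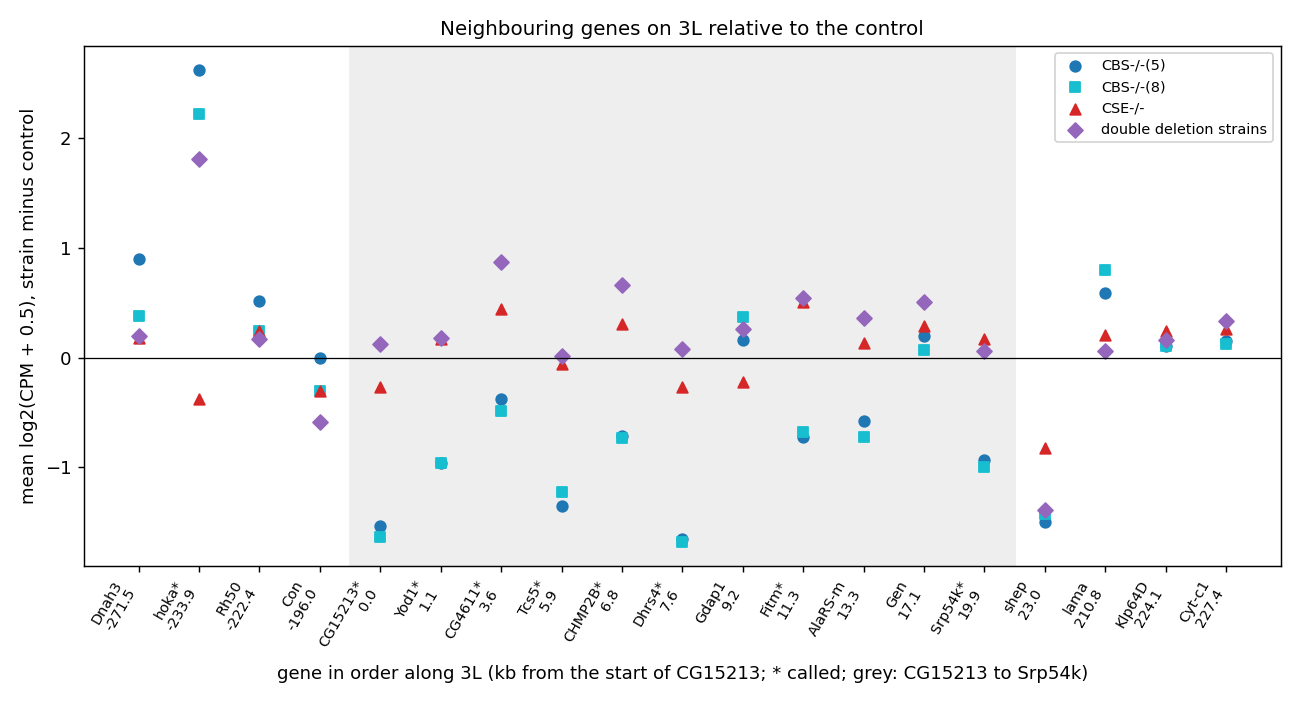
Difference from the control in mean log2(CPM + 0.5) (y axis) for consecutive tested genes along 3L (x axis, in order, with the distance in kb from the start of CG15213). Symbols stand for CBS-/-(5), CBS-/-(8), CSE-/- and the double deletion strains, asterisks mark called genes, and the grey band is the run from CG15213 to Srp54k, in which the symbols of both CBS strains lie below those of CSE-/- for the 8 called genes.

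By chromosome arm, 48 of 1776 tested genes were called on 3L (2.70%), 34 of 1641 on 2L (2.07%), 31 of 1903 on 2R (1.63%), 20 of 2303 on 3R (0.868%) and 8 of 1522 on X (0.526%). Around the deleted genes calls were few in number, and 1.52% of all genes tested were called. Within 0.5 Mb of CBS 1 of 34 tested genes was called besides CBS itself (Cyp6t1), and within 0.5 Mb of CSE 2 of 102 (Jabba and MFS15). Of the 141 called genes with a position, 26 lay within 10 kb of another called gene.

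Genes of fat storage and peptide cleavage were also among the calls, and were picked out after their values had been seen. The lipid droplet protein gene Jabba stood at 116 to 209.8 CPM in the CBS strains against 301 to 409 CPM in CSE-/- (log2 difference -1.25, SE 0.25, adjusted p = 0.0436) and the very-long-chain acyl-CoA synthetase gene bgm at 50 to 118 CPM against 164 to 258 CPM (-1.51, SE 0.31, adjusted p = 0.0476). In both, CBS-/-(8) was the lower CBS strain. The listed lipid storage and synthesis genes, which do not include these, gave no call among 24 (median -0.17), and 1.52% of all genes tested were called. In this list 3 genes had an unadjusted p under 0.05 (11.2% of all genes tested did), and DESeq2 called 1 gene lower. Acer (-1.49, adjusted p = 0.0151) and Ance-5 (-2.07, adjusted p = 0.0167), relatives of angiotensin-converting enzyme, and the neprilysin-like gene Nepl11 (-1.29, adjusted p = 0.0490) were lower, and its relative Nepl4 was higher (1.98, adjusted p = 0.0486). The serpin gene Spn47C (-1.99, adjusted p = 0.0125), the mitochondrial carrier gene Bmcp (-0.78, adjusted p = 0.0366) and the lysosomal membrane protein gene Cln3 (-0.90, adjusted p = 0.0335) were lower. Teh2 (1.58, adjusted p = 0.0229) and Teh3 (1.73, adjusted p = 0.0473), which encode auxiliary subunits of the neuronal sodium channel, were higher. They overlap on the same strand, so their counts are not separate evidence. The block called none of the genes of this paragraph, with adjusted p from 0.224 to 0.644, and all lost their call without CSE-/- replicate 4, with adjusted p without 1 library of up to 0.0727 (Spn47C) to 0.248 (Nepl11). Nepl11 and Cln3 lost it in 7 of the 8 fits, bgm, Nepl4 and Bmcp in 6, Jabba and Teh3 in 5, Acer, Ance-5 and Teh2 in 3 and Spn47C in 1.

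Most listed pathways gave no call. Only 1.52% of all genes tested were called, so 0 calls in lists of this size says little about a pathway. With edgeR's quasi-likelihood test 0 genes were called among 40 learning and memory genes (median log2 difference -0.01), 36 synaptic release genes (0.11), 16 circadian clock genes (-0.09), 17 antioxidant enzymes (-0.06), 16 heat shock proteins (-0.11), 18 metal-handling genes (-0.02) and 31 proteasome subunits (-0.14). At an unadjusted p under 0.05 there were 8, 3, 2, 1, 2, 5 and 1 genes in these lists, in that order, against 11.2% of all genes tested. DESeq2 called the learning and memory genes Gba1b and cpo and the circadian gene Pdp1, all lower. Of all 9396 genes that DESeq2 tested, it called 207 lower. The sign of the learning and memory median changed in 10 of the 19 alternatives. Among the learning and memory genes, the adenylyl cyclase rut stood at 50 ± 6.80 CPM (SD, n = 5) against 35.6 ± 14.4 CPM (SD, n = 3), with an adjusted p of 0.596. The potassium channel gene Sh had a log2 difference of -0.74 (adjusted p = 0.403), AGO1 of the miRNA pathway one of -0.71 (adjusted p = 0.296), and the protease gene teq one of -0.54 (adjusted p = 0.504). Here teq is the most abundant gene of the list, while Sh and AGO1 were picked out after their values had been seen. For the antioxidant enzyme Sod1 the values were 1211 ± 347 CPM (SD, n = 5) and 1793 ± 708 CPM (SD, n = 3), and the adjusted p was 0.557.

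Genes of the mitochondrial respiratory chain and of the cytosolic ribosome leaned to one side without a call. Of 67 oxidative phosphorylation genes tested, 64 had negative log2 differences, with a median of -0.38 against 0.00 over all genes, and 3 of the 67 lay wholly below CSE-/- (3.91% of all genes tested did), a share near that background. Of 79 cytosolic ribosomal protein genes, 75 had negative log2 differences, with a median of -0.30, and none was free of overlap. DESeq2 called 0 genes of either list. In edgeR 10 of the oxidative phosphorylation genes and 0 of the ribosomal genes had an unadjusted p under 0.05, against 11.2% of all genes tested. Under the replicate block the ribosomal median was 0.03, and over the alternatives the median of the oxidative phosphorylation genes ran from -0.57 to -0.14. The ribosomal median changed sign in 1 of 19 alternatives, the block, whose difference rests on replicates 1 and 3 only. RpL5, for instance, stood at 3576 to 5586 CPM in the CBS strains and at 5723, 3463 and 8054 CPM in CSE-/-, where replicate 3 was the low library.

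**Figure D5:**
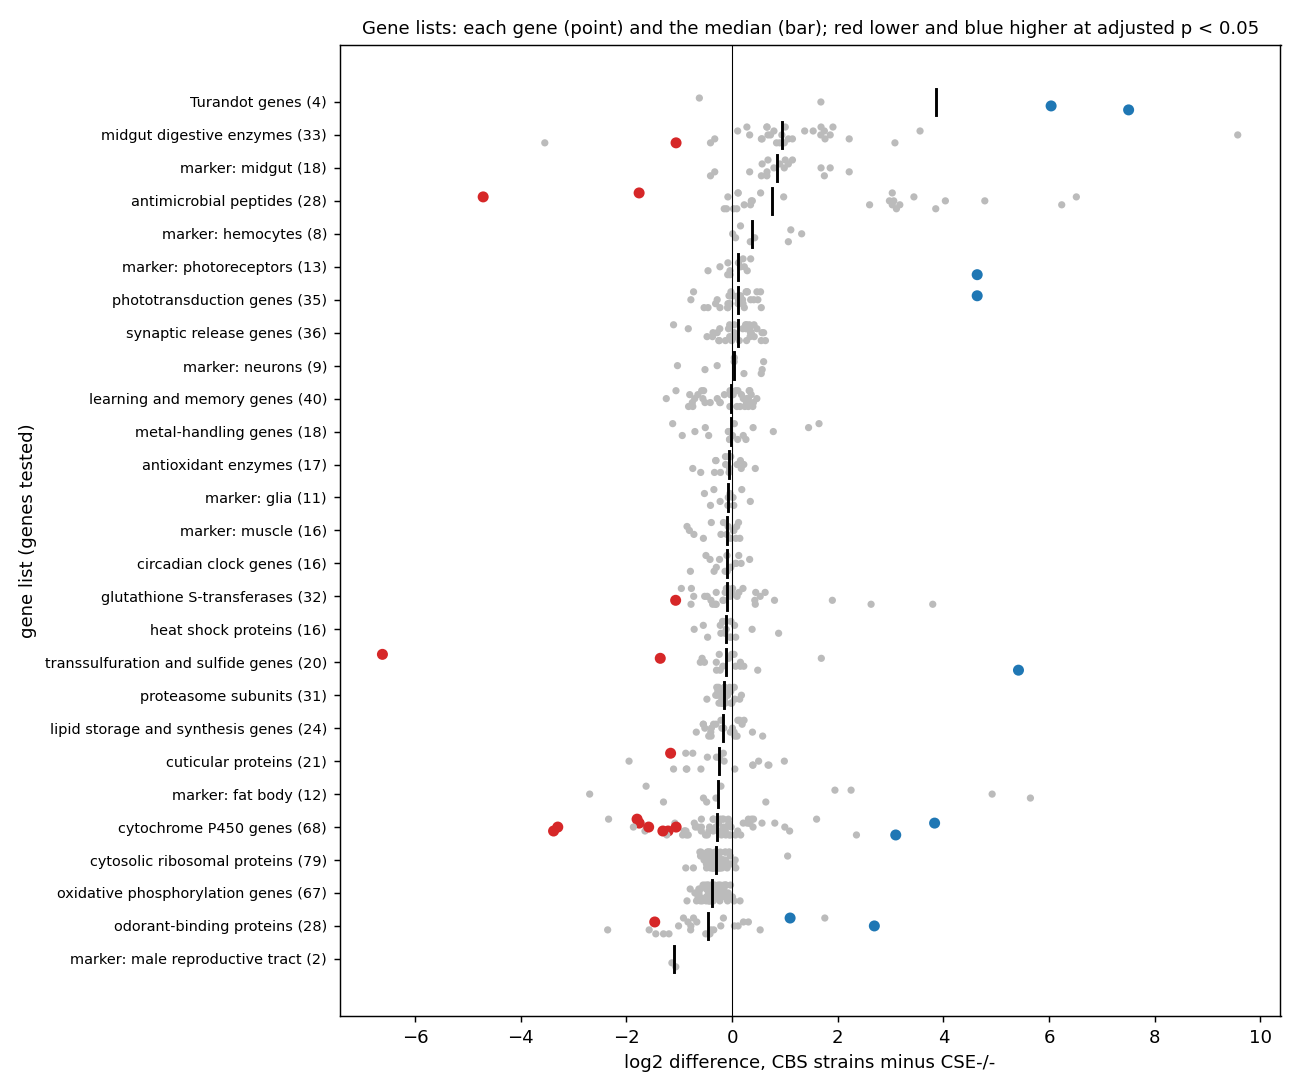
Log2 difference, CBS strains minus CSE-/- (x axis), of each tested gene of the gene lists (y axis, with the number of genes tested), with the median of each list as a bar. Red genes were lower and blue genes higher at an adjusted p under 0.05, and grey genes were not called; Turandot genes have a median of 3.86 and oxidative phosphorylation genes one of -0.38.

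Midgut genes set CBS-/-(5) apart from both CBS-/-(8) and CSE-/-. All 18 tested midgut markers had lower levels in both CBS-/-(5) libraries than in every CSE-/- and every CBS-/-(8) library, with a median log2 difference from CSE-/- of -5.78, whereas CBS-/-(8) alone had a median of 1.58. In the pooled comparison 0 of the 18 were called by edgeR or by DESeq2, and 0 had an unadjusted p under 0.05 in edgeR (11.2% of all genes tested did). Of 33 digestive enzyme genes the maltase gene Mal-A5 was the only call (1.52% of all genes tested were called). It stood at 123 to 186 CPM against 221 to 368 CPM (log2 difference -1.06, adjusted p = 0.0434), and its levels overlapped between the CBS strains. It lost its call under the block (0.439) and in 6 of the 8 fits without 1 library (up to 0.206). The levels of the amylase gene Amy-p did not overlap between them, at 209.6 and 70.8 CPM in CBS-/-(5), 929 to 3332 CPM in CBS-/-(8) and 532 to 1972 CPM in CSE-/-. The part of gut tissue in other results was not tested.

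Markers of the other head cell types overlapped between the groups. The summed level of 9 neuronal markers was 470 to 632 CPM in the CBS strains and 389 to 547 CPM in CSE-/-, that of 11 glial markers 2055 to 2825 CPM and 2440 to 3119 CPM, and that of 17 muscle markers 5532 to 8598 CPM and 6401 to 8770 CPM. Neuronal and photoreceptor markers were thus present in every library. For 16 fat body markers the sums were 881 to 4165 CPM and 1351 to 2064 CPM, the highest being CBS-/-(8) replicate 5 with its Yp1, and the control held 5675 to 8191 CPM. For 9 hemocyte markers they were 1036 to 1281 CPM and 751 to 1161 CPM. Male reproductive tract markers were near 0, at 3.28 to 6.61 CPM and 6.26 to 20.7 CPM over 25 genes. Of all these markers edgeR called only Rh6. DESeq2 also called the fat body marker Lsp1gamma and the hemocyte marker NimC1 higher and the muscle marker Act87E lower. In edgeR 1 or 2 neuronal, glial, hemocyte, muscle and male reproductive tract markers each and 4 fat body markers had an unadjusted p under 0.05. Of all genes tested 11.2% did.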

How the data were processed

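RNA-seq libraries were made with a strand-specific kit from male heads. Per the labels and the study's methods, the authors used Trimmomatic for trimming and STAR for alignment to dm6. The submitters' processing notes also list featureCounts, and the assignment classes at the end of each file carry that program's names. The deposited values are raw counts, 1 column per library, and those class totals were left out. In the 8 libraries 89.1 to 90.6% of the reads were counted to genes. Versions and strand setting are not given in the sources used here. No column of per-sample values was left out.

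The 5 CBS-deletion and 3 CSE-/- libraries were fitted with edgeR 4.0.16 (quasi-likelihood F test, TMM, filterByExpr, Benjamini-Hochberg adjustment over 9407 genes, threshold 0.05) in R 4.3.3, with genotype as the only term. A called gene is one past that threshold, and a log2 difference is CBS strains minus CSE-/-, with SE as its absolute value over the square root of F. CPM use TMM factors of all 15 libraries, and distances from the control use log2(CPM + 0.5). p-values measure the spread between these libraries only. Gene symbols and positions came from Ensembl's annotation of BDGP6, whose coordinates are those of dm6, and matched 17179 of 17453 identifiers. Of the called genes, 38 overlap exons of another gene, 30 of them on the opposite strand.

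Genes were named by rule. These were the deleted genes and MST, and the 15 called genes with the largest difference in each direction at a mean of at least 1 CPM and without overlap. Every called gene of the lists was named too, as was the most abundant tested gene of each list without a call. A further 64 genes were chosen after their values had been seen. Members and gene lists were chosen with earlier results of these data known.

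Replicate numbers in the labels were checked for pairing. Deviations from the group means of the 3 same-numbered CBS and CSE-/- pairs correlated at r = 0.342, 0.115 and 0.396 over genes, each over the 0.1 set as the criterion, so a block on the replicate number was fitted as an alternative. The pairing is weak, and no source says what a number shares. Pairs with different numbers ranged from -0.574 to 0.495, the highest being CBS-/-(8) replicates 1 (0.495) and 5 (0.451) with CSE-/- replicate 4. These group means pooled the 2 CBS strains. With deviations from strain means the same-numbered pairs gave 0.213, 0.397 and 0.320. The highest value was then 0.632, for CBS-/-(8) replicate 2 with CSE-/- replicate 3. Only replicates 1 and 3 occur in both genotypes, so only their libraries inform the difference of the block fit, which has 2 residual degrees of freedom. Other alternatives were RLE size factors, no filter, a minimum of 10 counts, edgeR without its legacy option, DESeq2 1.42.0, the CBS strains as separate groups or alone, all 15 libraries in 1 fit, thinning to the smallest total and each library left out. The authors' pipeline used edgeR too.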

Additional observations from a re-analysis of the deposited data

Results flagged for a closer look

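In 10 of the 127 named genes 1 of the 5 CBS-deletion libraries lay far from the other 4 by Dixon's criterion (critical value 0.71). For independent values from 1 normal distribution that criterion is passed in about 1 in 20 cases. The 5 libraries pool 2 strains and genes of a library are not independent, so that rate does not apply here. All 10 outlying values came from libraries of CBS-/-(8). In replicate 1 the level of apolpp was 176 CPM and that of Tmlh 11.3 CPM, the lowest of the group, while Gnmt at 509 CPM, the muscle gene Mlc2 at 3343 CPM and Cyp4g1 at 1.64 CPM were the highest. In replicate 2 Cyp6a13 was the lowest at 38.6 CPM and CG10073 the highest at 0.610 CPM. In replicate 5 the antennal genes Obp83a, at 299.9 CPM, and Obp19a, at 18.1 CPM, and the yolk protein gene Yp1, at 570.5 CPM, were the highest. Of these genes Tmlh, Cyp4g1, Cyp6a13 and CG10073 were called lower in the CBS strains, and in each the outlying library still lay on the CBS side of every CSE-/- library.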

How the results depend on the processing

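Of the 143 called genes, 0 changed sign under any alternative in which they were tested. The 85 lower and 58 higher genes became 207 and 148 with DESeq2, 218 and 121 with all 15 libraries in 1 fit, 170 and 86 with the CBS strains as separate groups, 7 and 8 with the replicate block, and 18 and 19 at an adjusted p under 0.01. Among listed genes DESeq2 called 17 lower and 5 higher P450 genes (edgeR 8 and 2), 5 lower and 2 higher odorant-binding protein genes (1 and 2) and 3 phototransduction genes (1). CBS-/-(5) alone gave 31 and CBS-/-(8) alone 147 higher genes. Leaving out 1 library gave 16 to 177 lower and 16 to 61 higher genes. The other alternatives stayed within 1.5 times of both counts. Sign changes occurred only in named genes that were not called. With the block the log2 difference was 0.065 for MST (CG12279), 0.20 for RpL5, -0.33 for Desat1, 0.27 for Gen and -0.15 for Yp1. CBS-/-(5) alone gave -0.056 for Desat1, -0.052 for Mlc2 and -1.43 for Yp1, and CBS-/-(8) alone 0.34 for Amy-p. Over the fits without 1 library the values ran from -0.52 to 0.067 for RpL5, from -0.15 to 0.26 for Desat1, from -0.14 to 0.036 for Gs2, from -0.19 to 0.37 for Mlc2, from -0.37 to 0.0057 for Prosbeta5, from -0.48 to 0.11 for Gen, from -2.45 to 3.26 for Obp83a and from -3.83 to 1.94 for Obp19a, and for both Obp genes the positive value came without CSE-/- replicate 4. The causes were not tested. Genes with under 10 counts in any library, CBS and CG31219 among them, were not tested under that minimum. CSE-/- is 1 strain, every CSE-/- library was deeper than every CBS-deletion library, and thinning all libraries to the smallest total gave 71 and 53 genes.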

Other observations

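Some genes that did not pass the test are given here as values. The lysozyme gene LysP stood at 0 to 8.62 CPM in the CBS strains against 36.7 to 73.6 CPM in CSE-/- (log2 difference -3.54, adjusted p = 0.0641), with 177 and 135 CPM in the control. Another lysozyme gene, LysC, stood at 0.0917 and 0.550 CPM in CBS-/-(5), at 101 to 338 CPM in CBS-/-(8) and at 0.107 to 0.147 CPM in CSE-/-, and the double deletion strains ranged from 0.458 to 234 CPM. It belongs to a cluster of similar genes, so its counts are uncertain. The larval serum protein gene Lsp1beta, a fat body product, stood at 70.8 and 136 CPM in CBS-/-(5), at 5.67 to 16.4 CPM in CBS-/-(8) and at 196 to 359 CPM in CSE-/-, all far below the 2901 and 3694 CPM of the control. The iron carrier gene Tsf1 stood at 2675 to 6315 CPM in the CBS strains and 4720 to 9888 CPM in CSE-/-, against 13088 and 15945 CPM in the control (log2 difference -0.94, adjusted p = 0.280). GstD5 was at 0.734 and 1.01 CPM in CBS-/-(5), 4.10 to 10.3 CPM in CBS-/-(8) and 0.214 to 0.506 CPM in CSE-/- (log2 difference 3.80, adjusted p = 0.119).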
